A study of Mus musculus with 5 samples.

Results

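Bok, Casp2 and Aatk are 3 genes with a role in cell death, and each was read by 1 probe on an array of the developing mouse cerebellum. The members were chosen by gene symbol, as the probes whose only symbol in the platform's annotation was 1 of these 3 names, out of 773 genes named by 787 probes of the 897 in the table. The set of names had been proposed with the values in view, so every level and difference of the 3 genes is a description and no test was run. Total RNA of cerebellum was measured in 5 samples, 1 at embryonic day 18 (E18) and the others at postnatal day 7 (P7), day 14 (P14), day 21 (P21) and day 56 (P56). Each age has 1 column, the mean signal of 2 array experiments per the labels, with no error deposited beside it. The labels name no genotype, treatment, strain or sex, and age is the difference between samples that they state.

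Apoptosis through mitochondria is governed by proteins of the Bcl-2 family, some of which permeabilise the outer mitochondrial membrane, and is carried out by caspases, proteases that cut target proteins after aspartate. Bok is a pro-apoptotic member of the Bcl-2 family, related to Bax and Bak, and was first described in the ovary. Casp2 encodes caspase-2, an initiator protease activated on the PIDDosome complex, and was isolated in the mouse as Nedd2, a gene of neural precursor cells whose level fell as the brain developed. Aatk encodes the apoptosis-associated tyrosine kinase (AATYK, or LMTK1), a membrane-anchored kinase first found in myeloid cells undergoing growth arrest and death, and also studied in neurons for its part in neurite growth and endosome transport. In the postnatal cerebellum, precursors of granule cells divide in the outer layer during the first weeks after birth and then become neurons, and some cells die in the process.

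The labels do not state the scale of the values, and it was read from the numbers. All values lay between 0.01 and 100, 420 probes stood at exactly 100 at 1 age, 0 did so at 2 or more, and the other 477 reached 100 at no age, with highest values down to 67.0. Such numbers can arise when each experiment is expressed as a percent of the probe's highest age in it and the 2 experiments are then averaged, and the values were read this way, although other scalings were not tested. A level is therefore relative to the same gene at its other ages, and says nothing of abundance compared with another gene. If each experiment was scaled to its own highest age before the mean was taken, no single experiment can lie outside 0 to 100, and a mean limits what each can have been: a low mean allows no experiment above double its value. These limits are called the possible range of an experiment here. They stand in for the missing error and hold only if the reading of the scale is right. Ages are called apart when the possible ranges do not overlap, so that both experiments moved the same way. A gene is said to have risen or fallen when its deposited value differed by 2-fold or more.

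Bok stood at 84.5% at E18, 100% at P7, 25.2% at P14, 15.7% at P21 and 14.3% at P56. It was high at both early ages and low at all 3 later ones, and most of its fall lay between P7 and P14. Bok was 14.3% at P56 against 84.5% at E18, a fall of 5.92-fold (log2 -2.56), where 52.5% of all probes fell by 2-fold or more. The median probe differed by -1.07 on the log2 scale, so Bok fell by 1.49 more than the median, and 88 of the 897 probes fell further. Bok was 25.2% at P14 against 100% at P7, or 3.97-fold lower, where 24.7% of probes fell and 59 fell further. Bok was 14.3% at P56 against 100% at P7, or 7.00-fold lower, a comparison in which 52.3% of probes fell. The last difference was 3.55-fold with each column divided by its median and 4.68-fold after quantile normalization of the columns.

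The possible ranges of the experiments set how firmly this stands. On this reading of the scale, a value of exactly 100% means that both experiments were highest at P7, and the mean of 25.2% at P14 allows no experiment above 50.4%. Bok was therefore at least 1.98-fold lower at P14 than at P7 in each experiment, and at least 3.50-fold lower at P56 than at P7. At E18 each experiment lay at 69.0% or above and at P56 at 28.6% or below, so both fell by at least 2.42-fold between these ages. Ranges were apart downwards for 16.7% of all probes for P14 against P7, 39.5% for P56 against P7 and 43% for P56 against E18. Of the 10 pairs of ages, 6 were apart for Bok, namely each of P14, P21 and P56 against each of E18 and P7. For P14 against E18 (3.35-fold lower) 31.3% of probes fell and 26.4% were apart downwards, and for P21 against E18 (5.38-fold lower) 52.5% fell and 44.4% were apart. For P21 against P7 (6.36-fold lower) 52.2% fell and 40.2% were apart. E18 and P7 were not apart, nor were P14, P21 and P56 among themselves.

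Casp2 stood at 84.9% at E18, 100% at P7, 64.8% at P14, 37.6% at P21 and 43.8% at P56. It shared the high early ages and the P7 maximum with Bok but came down over 2 steps, P14 against P7 and P21 against P14, neither of them past 2-fold. Casp2 was 43.8% at P56 against 84.9% at E18, a difference of 1.94-fold downwards (log2 -0.96) that missed the 2-fold rule and lay close to the median probe's -1.07. It was 43.8% at P56 against 100% at P7, a fall of 2.28-fold, and 37.6% at P21 against 84.9% at E18, a fall of 2.26-fold; 52.3% and 52.5% of probes fell in these comparisons. Neither fall passed 2-fold on another scale between columns: P56 against P7 was 1.16-fold lower after median division and 1.55-fold lower after quantile normalization, and P21 against E18 was 1.13-fold and 1.11-fold lower.

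In Casp2 2 of the 10 pairs of ages were apart, P21 against P7 and P56 against P7, for which 40.2% and 39.5% of all probes were apart downwards. Each experiment was at 75.2% or below at P21 and at 87.6% or below at P56, and at 100% at P7, so the fall to P56 was at least 1.14-fold in each. The ranges of the other 8 pairs overlapped or met, P21 and P56 against E18 among them, and the order of P21 and P56 is not resolved. Set against each column's median, Casp2 was the flattest of the 3 genes, between 0.89 times the median at P21 and 1.21 times at P7. Its range over ages was 2.66-fold as deposited and 1.36-fold once each column was divided by its median. The column medians stood at 84.5%, 82.8%, 55.5%, 42.3% and 42.0% from E18 to P56. Casp2 lay near them at E18, P21 and P56, but 17.2 points above at P7 and 9.21 points above at P14.

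Aatk ran the other way. It stood at 30.4% at E18, 58.8% at P7, 93.0% at P14, 82.5% at P21 and 93.4% at P56, lowest before birth and on a plateau from P14. Aatk was 93.4% at P56 against 30.4% at E18, a rise of 3.07-fold (log2 1.62), where 22.6% of all probes rose and 128 of the 897 rose further. Most of this was reached by P14, with 93.0% at P14 against 30.4% at E18 (3.06-fold). Each single step was under 2-fold. P7 against E18 was the closest at 1.93-fold, a step at which 5.8% of probes rose by 2-fold or more and at which 55 probes differed more upwards than Aatk. P14 against P7 was 1.58-fold, at a step where 14.4% of probes rose, and P21 against P14 was 1.13-fold lower.

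Each experiment had Aatk at 60.9% or below at E18, and at 86.1% or above at P14, 65.0% or above at P21 and 86.7% or above at P56. These 3 later ages were apart from E18, and P56 was at least 1.42-fold higher in each experiment. For P14, P21 and P56 against E18, 12.6%, 15.2% and 18.7% of all probes were apart upwards, and 19.8%, 21.1% and 22.6% rose. P7 had a possible range from 17.6% to 100% and was apart from no other age, so whether the gene was already up at P7 is not resolved. Aatk reached 100% at no age, so on this reading of the scale the experiments did not share their highest age. The order of P14, P21 and P56 is likewise not resolved.

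Aatk also hosts microRNA genes, which neither of the other 2 genes does in RefSeq. Mir338, on the strand of Aatk, gives mature microRNAs known from rodents to act in oligodendrocyte differentiation, and Mir3065 overlaps it on the opposite strand. The mature sequences are shown because their genes lie within the span of Aatk; the array measured none of them. Capitals mark the seed, bases 2 to 8.
mmu-miR-338-3p, chr11:120014781-120014802, minus strand: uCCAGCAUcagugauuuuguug
mmu-miR-338-5p, chr11:120014816-120014837, minus strand: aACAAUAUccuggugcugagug
mmu-miR-3065-5p, chr11:120014780-120014801, plus strand: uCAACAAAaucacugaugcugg
All 3 have different seeds.

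**Figure D1:**
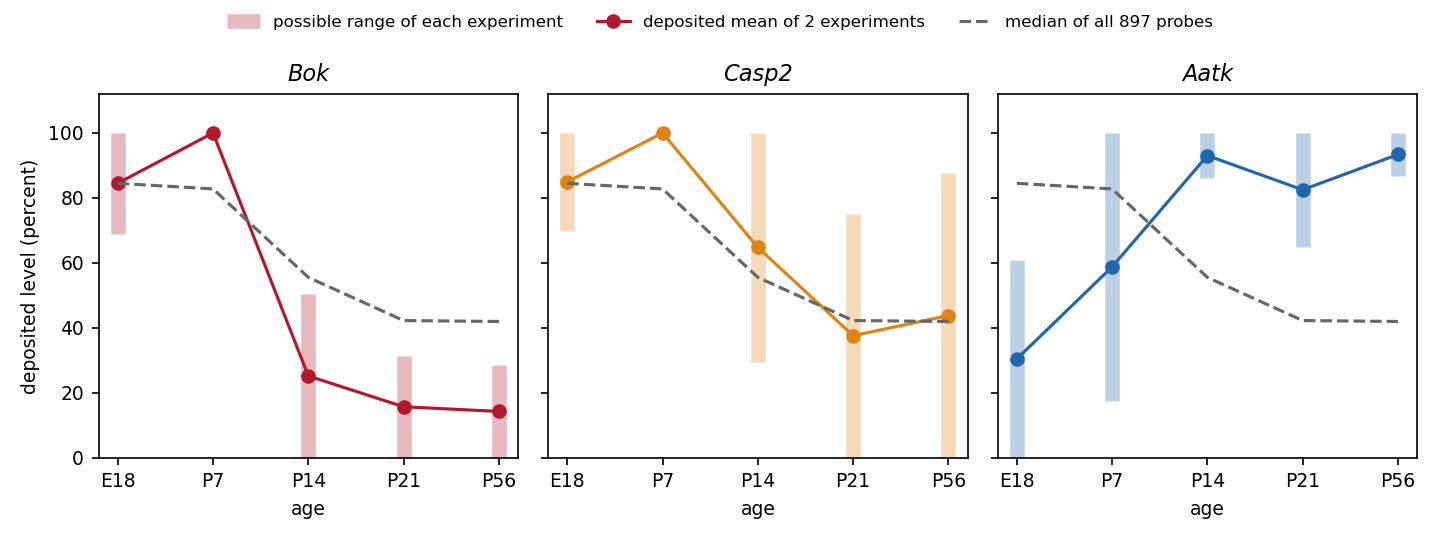
Level of Bok, Casp2 and Aatk (deposited percent) at the 5 ages, with points at the deposited mean of 2 experiments, bars over the possible range of each experiment and a dashed line at the median of all 897 probes. Bok drops below the median line from P14 and Aatk crosses it upwards between P7 and P14. Casp2 lies above the line at P7 and P14 and near it at the other ages.

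Bok and Casp2 were alike at E18 and P7 and parted at P14. They lay 0.43 points apart at E18 and 0 at P7, then 39.5 points apart at P14, 21.9 at P21 and 29.5 at P56, with Bok the lower at all 3. Over the 5 ages the mean distance was 18.3 points for Bok and Casp2, 61.8 for Bok and Aatk and 43.7 for Casp2 and Aatk. Of the named genes, 269 lay nearer to Bok than Casp2 did. Both stood among the 105 probes at exactly 100% at P7, whose median was 46.3% at P14, and 28 of the 105 lay below Bok at that age against 87 below Casp2. The order of ages of Bok as deposited was P7, E18, P14, P21, P56 from high to low, and 127 probes (14.2%) shared it. That of Casp2 was shared by 100 (11.1%) and that of Aatk by 25 (2.79%). Parts of each order are not resolved, since the possible ranges of some ages overlap.

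The sequences before the starts of the 3 genes are shown because Bok and Casp2 shared their highest age and then parted, while Aatk moved the other way. The windows are from RefSeq on build GRCm38.p6, cover the 250 bases before the annotated start, and are written 5′ to 3′ on the gene's strand. Capitals mark letters of the motifs searched on both strands: E2F sites (TTTCCCGC, TTTGGCGC, TTTGCCGC or TTTCGCGC), CCAAT boxes (CCAAT), GC boxes (GGGCGG), E-boxes (CACGTG) and TATA boxes (TATAAA). The motifs were chosen with the windows in view.
Bok, plus strand, chr1:93685325-93685574: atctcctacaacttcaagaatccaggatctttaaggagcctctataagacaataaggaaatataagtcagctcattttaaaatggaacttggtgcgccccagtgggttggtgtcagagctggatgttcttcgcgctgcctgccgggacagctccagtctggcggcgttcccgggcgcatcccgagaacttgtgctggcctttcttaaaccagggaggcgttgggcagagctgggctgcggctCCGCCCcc
Casp2, plus strand, chr6:42264735-42264984: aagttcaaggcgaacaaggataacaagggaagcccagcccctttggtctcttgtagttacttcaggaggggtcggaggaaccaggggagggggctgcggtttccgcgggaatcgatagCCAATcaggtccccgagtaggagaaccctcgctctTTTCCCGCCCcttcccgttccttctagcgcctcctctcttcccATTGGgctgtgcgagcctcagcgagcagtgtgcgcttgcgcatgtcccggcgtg
Aatk, minus strand, chr11:120047153-120047402: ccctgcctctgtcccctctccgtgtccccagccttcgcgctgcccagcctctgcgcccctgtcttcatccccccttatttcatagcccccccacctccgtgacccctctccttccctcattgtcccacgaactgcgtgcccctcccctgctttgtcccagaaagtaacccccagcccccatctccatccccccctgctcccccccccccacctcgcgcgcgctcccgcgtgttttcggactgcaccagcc

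The Casp2 window held 1 E2F match 97 to 90 bases before the start, which overlapped the single GC box at 93 to 88 bases, and CCAAT matches at 132 to 128 and at 54 to 50 bases. Of all 32851 RefSeq windows of this length in the mouse, 1.86% held an E2F match, 33.8% a CCAAT box and 32.7% a GC box. The Bok window held 1 GC box, 8 to 3 bases before the start, and no other match. Aatk has 4 annotated windows; the one shown held no match, and a window farther into the gene held 1 E-box and 1 CCAAT box, motifs found in 6.02% and 33.8% of windows. G and C made up 55.2% of the Bok window, 60.4% of the Casp2 window and 67.6% of the Aatk window, against a median of 52.4%. A match describes these letters alone, and the array gives no measure of what binds there.

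**Figure D2:**
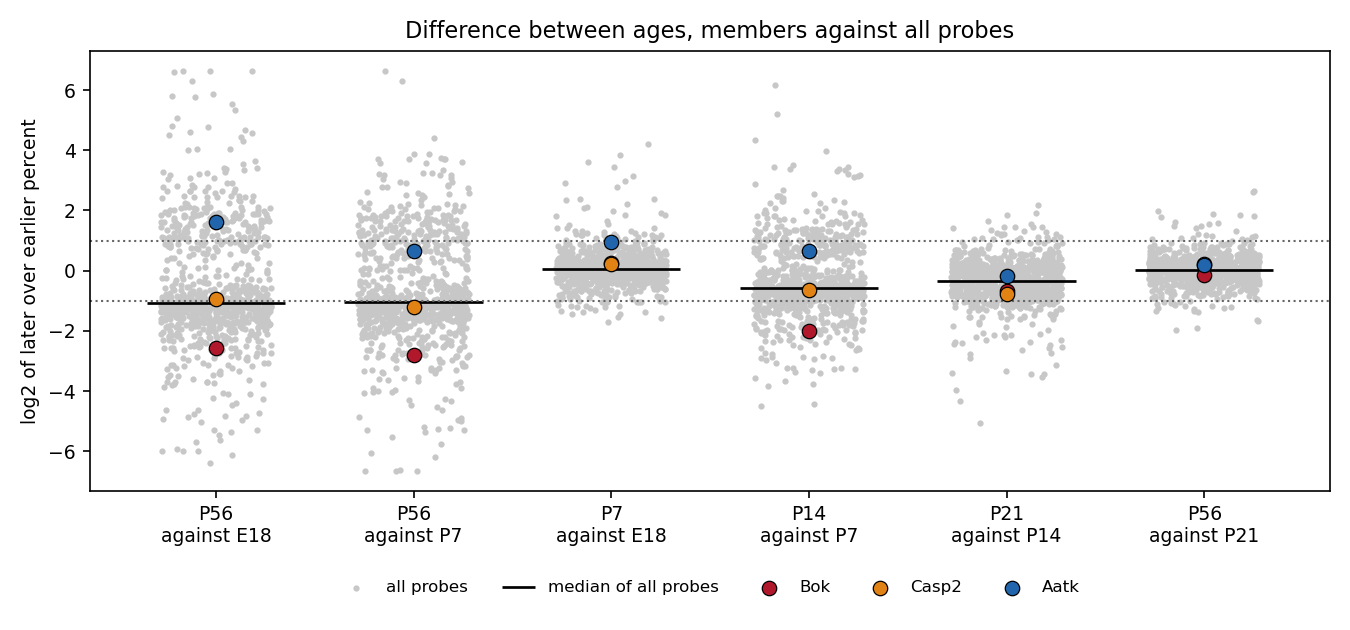
Difference between ages (log2 of the later over the earlier percent) of Bok, Casp2 and Aatk beside all 897 probes in grey, with the median of all probes as a line and dotted lines at 2-fold. Bok lies below the median for P56 against E18 and P14 against P7, Casp2 lies close to it, and Aatk lies above it.

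The genes with the nearest profiles were found as those with the smallest mean distance in percent points over the 5 ages. For Bok these were Mcm4, a subunit of the replicative helicase, at 0.90 points, Hmgn2, a nucleosome-binding protein gene, at 1.45, Smc4, a condensin subunit gene, at 2.01, Mcm7, another helicase subunit gene, at 2.41, and Kpna2, an importin gene, at 2.82. Mcm4 stood at 84.0%, 99.7%, 26.1%, 13.6% and 13.5% from E18 to P56, with a largest distance from Bok of 2.10 points. The median distance of named probes from Bok was 22.2 points.

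Casp2 lay nearest to Bola2 (1.42 points), which encodes a protein of iron-sulfur cluster handling, Rrs1 (1.62), a ribosome assembly gene, Slc31a1 (2.01), the copper transporter gene, Rbm8a (2.64), which encodes a protein of the exon junction complex, and Lsg1 (2.88), a gene of large ribosomal subunit maturation. The median distance of named probes from Casp2 was 18.2 points. Aatk lay nearest to Tsc22d4 (1.52 points), Baiap2 (2.13), an actin regulator gene of synapses, Calb1 (3.18), the calbindin gene of Purkinje cells, Ppp3ca (3.77), which encodes the catalytic subunit of calcineurin, and Numb (4.0), an inhibitor gene of Notch signalling, against a median of 42.6 points over named probes. These likenesses rest on 5 ages in the same 5 columns and depend on the measure. Ranked by the correlation of log2 values, 0 of the 5 genes of Bok, 1 of the 5 of Casp2 and 2 of the 5 of Aatk were again among the nearest.

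**Figure D3:**
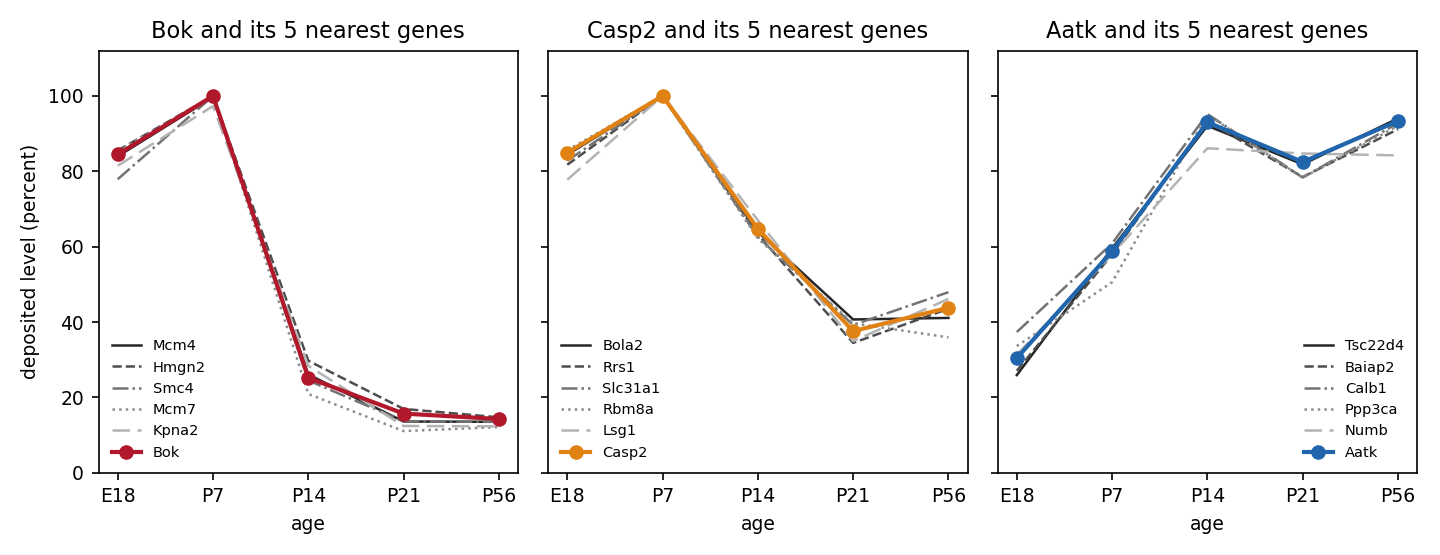
Level (deposited percent) by age of each of Bok, Casp2 and Aatk, in colour, with the 5 named genes of smallest mean distance in grey. The nearest profile of each lies 0.90, 1.42 and 1.52 points away on average.

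Other genes of cell death were taken from a list of 119, of which 8 had a named probe. For P56 against E18 the list had 1 gene that rose, 4 that fell and 3 within 2-fold. Its median difference was -1.02 (log2), beside 170 risen, 408 fallen and a median of -1.07 among the 773 named genes. After division of each column by its median, 2 were higher by 2-fold and 0 lower, beside 272 and 147 of all probes. Clu, the gene of the extracellular chaperone clusterin, rose 4.03-fold to 100% at P56, against 24.8% at E18. Those that fell were Bcl2l13, a Bcl-2 family gene also known as a mitophagy receptor, by 3.43-fold, Pdcd5 by 2.61-fold, Tnfrsf21, the death receptor 6 gene, by 2.29-fold, and Bcl2l11, which encodes the pro-apoptotic BH3-only protein Bim, by 2.19-fold. Ddit4, a stress-induced inhibitor gene of mTORC1, was 47.6% at P56 against 89.0% at E18, Pdcd4, an inhibitor gene of translation initiation, was 61.7% against 72.8%, and the stress gene Gadd45b was 52.8% against 32.7%.

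Within the Bcl-2 family the 3 measured genes had their highest deposited values at different ages. Bok was highest at P7, and Bcl2l11 at P14, where it stood at 100% against 75.8% at P7 and 37.3% at P21. Bcl2l13 was highest at E18 with 94.1% against 88.2% at P7, a difference of 1.07-fold. Its possible ranges at these ages overlap, so its highest age is not resolved. For P14 against P7, where most of the fall of Bok lay, 0 of the 8 genes fell and 1 rose, beside 24.7% and 14.4% of all probes. The gene that rose was Gadd45b, by 5.59-fold to 89.6% at P14, against 16.0% at P7. With a 1.5-fold threshold 2 rose and 2 fell, beside 213 and 447 of the 897 probes. Under either scaling between columns 2 rose by 2-fold and 0 fell. Of all probes, 238 rose and 105 fell after median division, and 224 and 164 after quantile normalization. For P21 against P14 4 of the 8 fell, Bcl2l11 by 2.68-fold, Tnfrsf21 by 2.13-fold, Pdcd4 by 2.09-fold and Ddit4 by 2.04-fold, where 13.2% of all probes fell. After median division of columns 1 gene was lower by 2-fold at that step, and after quantile normalization 0 were, beside 51 and 40 of all probes.

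By distance in percent points, 6 of the 8 genes lay nearer to Casp2 than to Bok or Aatk, with Pdcd5 the nearest at 6.37 points, 2 (Gadd45b and Clu) lay nearest to Aatk and 0 to Bok. Of the other 770 named genes as a whole, 48.7% lay nearest to Casp2, 29% to Aatk and 22.3% to Bok. Of the genes named for neural precursors like Casp2, Septin2 (Nedd5), a cytoskeletal GTPase gene, was measured: it stood at 100% at E18, 92.6% at P7, 72.5% at P14, 45.9% at P21 and 44.8% at P56, 7.90 points from Casp2 on average. The kinases most like Aatk, Lmtk2 and Lmtk3, had no named probe here.

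**Figure D4:**
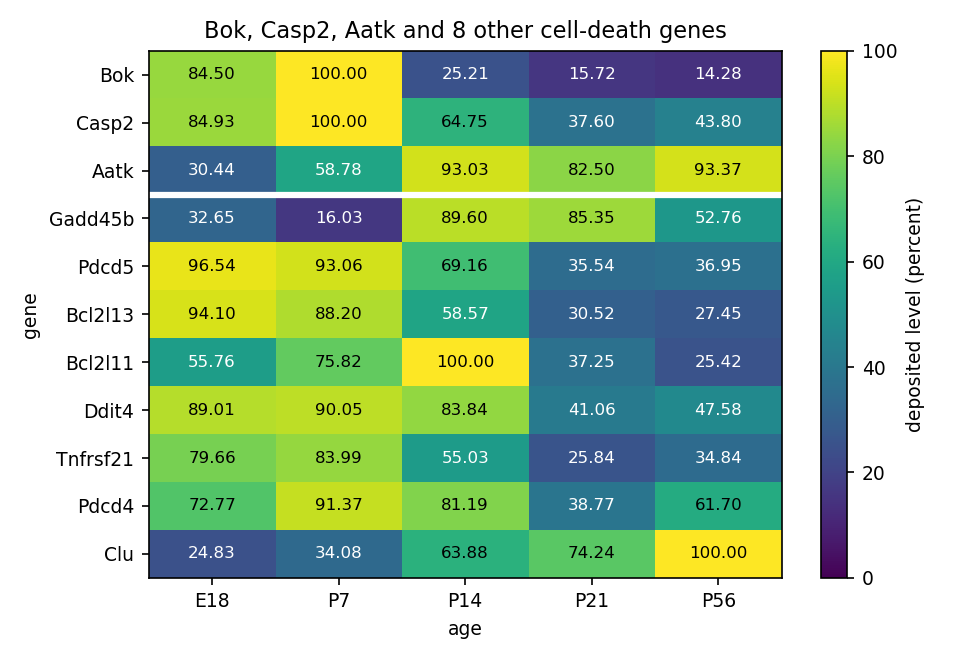
Level (deposited percent, colour and printed value) of Bok, Casp2 and Aatk, above the white line, and of 8 other cell-death genes, below it, at the 5 ages. The list genes other than Gadd45b and Clu are lower at P21 than at E18 and P7, and Gadd45b and Clu are low at the early ages.

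Whole tissue was measured, so fewer cells of a type and less RNA per cell cannot be told apart. Marker genes of several cell types moved with the members. For P56 against E18 and for P14 against P7, 52.5% and 24.7% of all probes fell. All 18 genes of dividing cells with a named probe, of 25 listed, fell in both comparisons. Their medians were -3.73 and -2.83 (log2), beside -2.56 and -1.99 for Bok. Their probes spanned 4.43% to 27.8% at P14 with a median of 14.7%, so Bok at 25.2% lay near the top of that span, and at P56 they spanned 0.03% to 27.3% with a median of 6.26%, beside 14.3% for Bok. Most genes of meninges and vessels moved the same way: 9 of 11 fell for P56 against E18 and 6 of 11 for P14 against P7. Their list medians were -2.02 and -1.07 (log2). The others for P56 against E18, Pltp and Ptgds, were higher by less than 2-fold (log2 0.98 and 0.74). Col4a1, a basement membrane collagen gene and the nearest of the list to Bok, lay 7.47 points from it on average. Probes of this list spanned 11.2% to 100% at P56 against 50.6% to 100% at E18. Casp2 lay 18.8 points from its nearest gene of dividing cells, Mcm4, and 9.83 from its nearest gene of meninges and vessels, Kdr, a VEGF receptor gene. Its distance from the microglial gene Laptm5 was similar (10.1 points), and that from the astrocyte gene Gfap was 16.7 points. The part of any of these cell groups in the falls of Bok and Casp2 was not tested.

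Most neuronal and glial markers rose with Aatk for P56 against E18, where 22.6% of all probes rose. At this comparison 5 of the 7 measured genes of mature granule cells and all 6 of Purkinje cells rose. So did all 5 of oligodendrocytes and myelin, and all 7 of astrocytes and Bergmann glia. Of the other granule cell genes, Neurod2 was higher by less than 2-fold (log2 0.70) and Neurod1 was lower (log2 -0.48). Median differences of the lists, in the order given, were 3.36, 1.80, 5.55 and 2.78 (log2), beside 1.62 for Aatk. At E18 the probes of these lists had medians of 9.43%, 18.8%, 1.08% and 8.17%, beside 30.4% for Aatk, which was above the highest myelin probe (19.8%) and the highest astrocyte probe (28.6%). At P56 the lowest and highest probes were 40.6% and 100% in granule cells, 58.7% and 100% in Purkinje cells, 46.8% and 100% in oligodendrocytes, and 44.2% and 100% in astrocytes, with Aatk at 93.4%. Between other ages some of these markers parted from Aatk. The median myelin probe was 87.9% at P21 and 54.7% at P56, beside 82.5% and 93.4% for Aatk. For P56 against P7, 4 of the 7 astrocyte genes rose and 1 fell, beside 169 and 469 of all probes. The gene that fell was Gfap, at 100% at P7 and 44.2% at P56. The list genes nearest to Aatk were Calb1 of Purkinje cells at 3.18 points, Neurod2 of granule cells at 16.1, Agt of astrocytes at 18.5 and Car2 of oligodendrocytes at 21.3. The measured microglial genes, Ctss and Laptm5, moved in opposite directions. Ctss, the cathepsin S gene, lay 10.6 points from Aatk and rose from 29.8% at E18 to 100% at P56. Laptm5 was lower at P56 (48.9%) than at E18 (80.4%), within 2-fold. The part of these cells in the rise of Aatk was not tested.

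**Figure D5:**
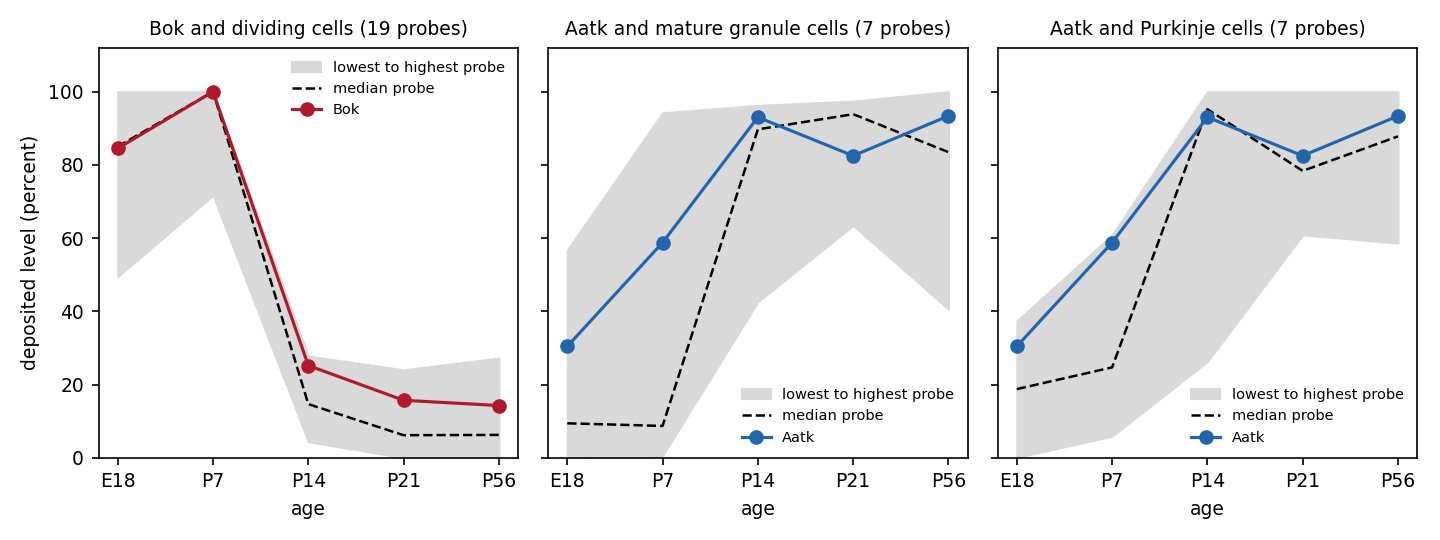
Level (deposited percent) by age of Bok beside 19 probes of dividing cells, and of Aatk beside 7 probes each of mature granule cells and Purkinje cells, with grey from the lowest to the highest probe and a dashed line at the median probe. Bok follows the dividing-cell median to P7 and lies above it from P14, and Aatk lies above both neuronal medians at E18 and P7.

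The scale between columns bears on all 3 genes, since the median of the columns was 42.0% at P56 against 84.5% at E18. With each column divided by its median, Bok was 2.94-fold lower at P56 than at E18, Aatk was 6.17-fold higher and Casp2 was 1.04-fold higher. With quantile normalization the values were 2.95-fold lower, 3.27-fold higher and 1.02-fold higher. The direction of Bok and Aatk was the same under each scaling, while Casp2 was close to no difference between these ages under both. For Aatk, P14 against P7 was past 2-fold upwards under both (2.36-fold and 2.14-fold), and so was P56 against P7 (3.13-fold and 2.03-fold), which was 1.59-fold as deposited. The background moved with the scale too. For P56 against E18, 203 probes were called higher and 471 lower as deposited, 272 and 147 after median division, and 246 and 206 after quantile normalization. For P14 against P7 the pairs of calls were 129 and 222, 238 and 105, and 224 and 164, and for P21 against P14 they were 29 and 118, 61 and 51, and 57 and 40.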

How the data were processed

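Processing started from the deposited table of 5 columns, 1 per age, taken by sample name. The values are percent, as read from the deposited numbers; per the labels' descriptions, the authors gave the mean signal of 2 array experiments. Not given in the sources used here are the array maker, background correction, normalization and choice of probes, nor whether the experiments used separate animals, and the number of arrays limits precision. Probes took symbols from the platform annotation (787 with 1 symbol, 16 with several, 94 with none), and the 3 members were found by gene ID in RefSeq.

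Members, gene lists, the 2-fold rule and named genes were chosen with earlier results of these data known. Named were the members, all measured genes of the cell-death, LMTK and Nedd lists, the 5 nearest profiles of each member, and the list gene nearest to a member. Differences are log2 of ratios, with 20 values under 1% set to 1%. With 1 column per age no test is possible. Alternatives were floors at the 10th and 25th percentile, a pseudocount of 1 point, columns divided by medians, quantile normalization, 1.5-fold and 3-fold thresholds, probes at or above 1% throughout, and P7 or P21 as end points. Calculations used Python 3.11.15, pandas 2.3.3 and numpy 2.4.6 and were tested on simulated data.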

Additional observations from a re-analysis of the deposited data

How the results depend on the processing

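No paired analysis was possible because each age has 1 column and no test was run. For P56 against E18, the direction and call of Bok were the same under the 9 alternatives run for it (the filter on probes under 1% applies to counts and the list median alone), but its difference of -2.56 (log2) was -1.24 (2.36-fold) when low values were raised to the 25th percentile, -2.05 when raised to the 10th, -1.56 after either scaling and -2.81 with P7 in place of E18. Casp2, at -0.96 (log2), was 0.054 after division of each column by its median (median scaling) and 0.030 after quantile normalization. It was past the rule with a 1.5-fold threshold (-0.96), with P7 in place of E18 (-1.19, a call lost under both scalings) and with P21 in place of P56 (-1.18, likewise lost). Aatk, at 1.62, missed the rule with P7 in place of E18 (0.67; 1.65 after median scaling and 1.02 after quantile normalization). Of all probes, 135 rose in place of 203 with a 3-fold threshold, and in place of 471 fallen there were 147 after median scaling, 206 after quantile normalization and 234 with a 3-fold threshold. The corresponding risen probes were 272 and 246 with the 2 scalings. The cell-death list's median of -1.02 was -0.77 with a floor at the 25th percentile, -0.996 with a pseudocount, -0.0090 after median scaling and -0.078 after quantile normalization, and missed a 3-fold threshold. Of 84 values for steps between neighbouring ages of the 3 genes under an alternative, 72 kept direction and call and 0 passed the rule in the other direction. The 1.5-fold and 3-fold thresholds reuse the same differences, so under them direction could not change. A 3-fold threshold also could not change the call of a step under 2-fold. Floors and a pseudocount cannot reverse a direction. The lowest value of Casp2 (37.6%) lay above both floors (20.4% and 35.8%), so its steps could not move under them. The lowest value of Aatk (30.4%) lay above the lower floor, with the same result there. The 72 therefore include values that could not differ. The highest age of Aatk was P14 in place of P56 with quantile normalization. The causes were not tested.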
